A study of Arabidopsis thaliana with 12 samples.

Results

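Heat shock proteins are molecular chaperones, and heat shock factors are the transcription factors that switch their genes on. The levels of 10 genes of this response were read from a table of 27655 genes in stems of Arabidopsis thaliana. They are HSP70 (AT3G12580), HSP90.1 (AT5G52640), HSP101 (AT1G74310), the small heat shock protein genes HSP17.4 (AT3G46230), HSP18.2 (AT5G59720), HSP17.6II (AT5G12020), HSP21 (AT4G27670) and HSP22 (AT4G10250), and the factor genes HSFA2 (AT2G26150) and HSFA6A (AT5G43840). The 10 genes were chosen by name and role, not by their measured values, although earlier results on these data were known.

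Poly(A) RNA of main inflorescence stems of 2-month-old plants was sequenced in 12 libraries, 3 biological replicates for each of 4 genotypes. WT was Col-0. ccr was ccr1-3, which carries a mutation in CCR1, the gene of cinnamoyl-CoA reductase in lignin synthesis. The third group was labelled fer, with its allele given as fer4, a mutant allele of the receptor kinase gene FERONIA (FER). ccrfer combined ccr1-3 with a fer allele, given as fer4 for replicate 1, fer5 for replicate 2 and fer6 for replicate 3. The labels recorded no heat treatment. The study asked how much the loss of FERONIA alters genes that are raised in ccr1-3.

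Heat shock proteins act where proteins unfold. In plants, HSP70 binds exposed hydrophobic stretches, HSP90 matures kinases, receptors and other client proteins, and HSP101 pulls apart aggregates, while small heat shock proteins hold unfolding proteins until the ATP-driven chaperones can act on them. Class A factors bind heat shock elements, which are inverted repeats of the bases GAA and TTC in promoters, and HSFA2 is a heat-induced factor that prolongs the response. Several of these genes are also switched on without heat in maturing seeds.

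FER expression went against the label of 3 libraries, so these are called the fer-labelled libraries throughout. FER (AT3G51550) was at 83.1 to 85.1 FPKM (fragments mapped to a gene, scaled by its length and by the depth of the library) in the fer-labelled libraries, at 83.0 to 85.9 in WT and at 0.159 to 1.49 in ccrfer. CCR1 kept its transcript in ccr (188 to 220 FPKM, against 222 to 256 in WT). Libraries held 56884740 to 227159338 reads, and replicates correlated at r values of 0.938 (ccrfer) to 0.993 (ccr) across the tested genes. AT2G01021, a gene annotated beside a ribosomal RNA gene, was at 45932600 FPKM in ccrfer replicate 3, the library that stood apart most, and at 42536.3 to 15147300 elsewhere. The 6 wood markers of the stem summed to 7.63 to 9.91 FPKM in WT, against 435 to 447 in ccr, 344 to 363 in the fer-labelled libraries and 831 to 860 in ccrfer, so the WT stems had little of the wood signature. The 8 seed markers (storage proteins and oleosins) summed to 151, 151 and 164 in the fer-labelled libraries, with all 8 at a mean of 1 or more. They summed to at most 0.171 in WT, 2.1 in ccr and 1.01 in ccrfer, and CRU2 and SESA1 were among those listed at 0 in all ccrfer libraries. The 5 flower markers summed to at most 1.05 in any library. In whole stems, fewer cells of a type and less RNA per cell cannot be told apart.

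**Figure D1:**
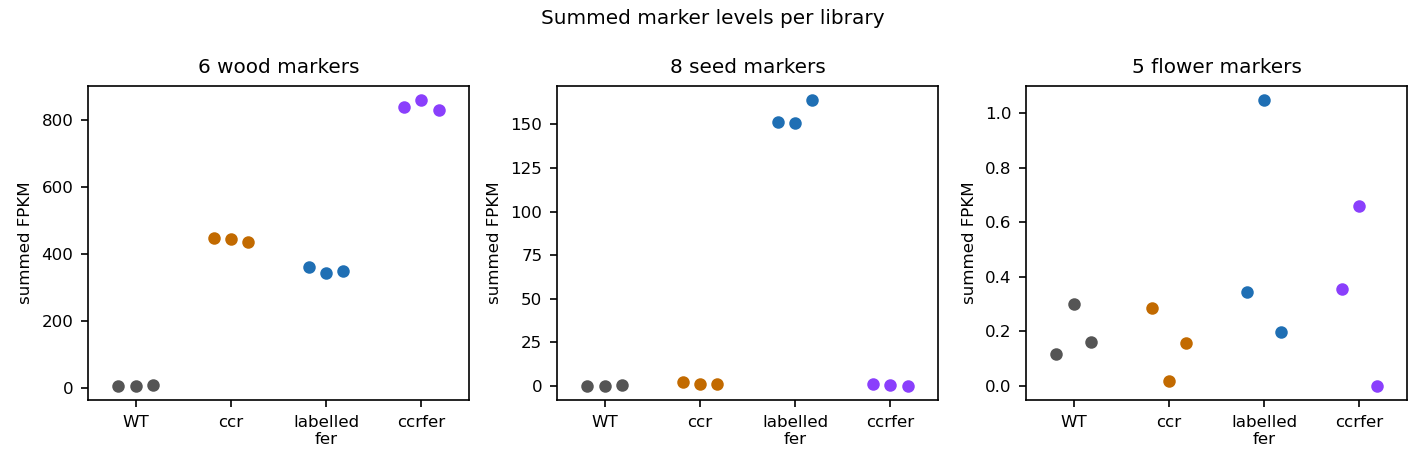
Summed FPKM of wood, seed and flower markers (y axes, FPKM) in each of the 12 libraries (points) by genotype (x axis). Seed markers sit at 151 to 164 in the fer-labelled libraries and at 2.1 or less elsewhere, while wood markers are at most 9.91 in WT and at least 344 in the other genotypes.

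The promoters are shown first, because they carry the sites that heat shock factors bind. Windows of 300 bases, 250 before and 50 after the annotated gene start, were read from the TAIR10.1 genome with RefSeq gene starts. The authors mapped to TAIR10, and 311 of 312 genes with coordinates in their table lay at least 90% inside the gene of the same identifier here. The search covered both strands for 2 units (GAANNTTC or TTCNNGAA) and for 3 units (GAANNTTCNNGAA or TTCNNGAANNTTC), where each match of 3 units also holds matches of 2 units. Of 27443 protein-coding promoters, 19.3% held 2 units and 0.481% held 3 units. Of the windows described here, those of HSP70, HSP17.4 and HSFA2 held 3 units, and that of HSP21 held 2 units only. The windows of HSP90.1, HSP17.6II, HSP18.2, HSP22 and HSFA6A held neither, which says only that these letters are not in these windows. Capitals mark the matches in the sequences below, printed 5′ to 3′ on the strand of the gene, for the genes whose levels differ most in pattern. HSP70 lies at chr3:3993837-3994136 (minus strand), HSP17.4 at chr3:16984818-16985117 (minus), HSFA2 at chr2:11135374-11135673 (plus) and HSFA6A at chr5:17626438-17626737 (minus).
HSP70: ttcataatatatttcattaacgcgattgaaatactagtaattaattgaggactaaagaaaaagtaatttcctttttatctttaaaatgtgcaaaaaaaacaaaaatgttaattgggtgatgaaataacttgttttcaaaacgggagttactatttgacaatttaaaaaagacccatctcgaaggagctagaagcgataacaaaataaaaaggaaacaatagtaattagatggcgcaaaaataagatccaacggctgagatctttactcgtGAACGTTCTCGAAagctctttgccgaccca
HSP17.4: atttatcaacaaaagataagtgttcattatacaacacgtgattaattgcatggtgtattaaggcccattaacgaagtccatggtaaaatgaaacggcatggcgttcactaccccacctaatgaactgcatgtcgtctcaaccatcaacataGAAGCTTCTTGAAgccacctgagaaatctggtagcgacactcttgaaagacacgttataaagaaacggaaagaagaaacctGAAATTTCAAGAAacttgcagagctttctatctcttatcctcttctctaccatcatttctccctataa
HSFA2: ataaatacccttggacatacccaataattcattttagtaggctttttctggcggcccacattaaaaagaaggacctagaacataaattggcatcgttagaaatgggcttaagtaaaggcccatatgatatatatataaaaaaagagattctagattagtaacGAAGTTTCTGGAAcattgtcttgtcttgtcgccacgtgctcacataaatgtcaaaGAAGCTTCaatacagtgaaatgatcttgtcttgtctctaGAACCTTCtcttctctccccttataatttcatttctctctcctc
HSFA6A: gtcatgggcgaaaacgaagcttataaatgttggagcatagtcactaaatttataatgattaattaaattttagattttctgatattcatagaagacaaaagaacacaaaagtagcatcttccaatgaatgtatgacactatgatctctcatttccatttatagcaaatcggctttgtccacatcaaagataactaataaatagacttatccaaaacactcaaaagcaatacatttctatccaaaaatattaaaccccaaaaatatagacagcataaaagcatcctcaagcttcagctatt

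The match of 3 units began at base 21 of the annotated HSP70 gene and at -99 and -18 in HSP17.4. HSFA2 had 3 units at -88 and 2 units at -33 and 7. These matches are descriptions of sequence and not shown to be bound in these stems.

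The ATP-driven chaperone genes HSP70 and HSP90.1 were highest in the fer-labelled libraries and lowest in the double mutant. HSP70 (chromosome 3, 3991117 to 3993886, minus strand) gave 29.6, 26.9 and 26.9 FPKM (WT), 21.3, 19.4 and 19.4 (ccr), 159.8, 157.5 and 150.5 (fer-labelled) and 12.1, 16.1 and 13.5 (ccrfer). The 4 genotypes did not overlap in any pair. Its mean was 5.61 times that of WT in the fer-labelled libraries (156 ± 4.81 against 27.8 ± 1.57 FPKM, SD, n = 3). The difference was 2.45 on the log2(FPKM + 1) scale (SE 0.0896, adjusted p = 6.30e-10, higher in 3 of 3 libraries).

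HSP70 fell below WT in ccr and again in ccrfer. The difference was -0.45 between ccr and WT (20.0 ± 1.10 FPKM in ccr, SD, n = 3, adjusted p = 0.00146), and -0.50 between ccrfer and ccr (13.9 ± 2.01 in ccrfer, adjusted p = 0.00168). Between ccrfer and WT it was -0.96 (adjusted p = 3.16e-06), and between ccrfer and the fer-labelled libraries -3.41 (adjusted p = 3.52e-10). Only 21 of 18428 tested genes fell further in that last comparison, as HSP70 ranked 22 from the bottom.

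HSP90.1 (chromosome 5, 21352557 to 21355147, plus strand), the heat-inducible HSP90 of the cytosol, kept the same order. Its replicates gave 30.3, 30.0 and 27.7 FPKM (WT), 25.4, 24.0 and 25.5 (ccr), 107, 105 and 105 (fer-labelled) and 19.1, 19.4 and 20.5 (ccrfer). Again no 2 genotypes overlapped. The mean in the fer-labelled libraries was 3.61 times that of WT, with a difference of 1.82 (SE 0.0571, adjusted p = 1.91e-10). HSP90.1 also fell in ccr against WT (-0.22, adjusted p = 0.00766), in ccrfer against ccr (-0.33, adjusted p = 0.0014) and in ccrfer against WT (-0.55, adjusted p = 7.49e-06). Between ccrfer and the fer-labelled libraries the difference was -2.37 (adjusted p = 1.93e-10).

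HSP101 (chromosome 1, 27936508 to 27940369, minus strand), the disaggregase needed for acquired heat tolerance, was above WT in ccr, ccrfer and the fer-labelled libraries. Its replicates gave 5.99, 5.22 and 5.01 FPKM (WT), 14.1, 13.0 and 12.1 (ccr), 22.3, 22.7 and 20.9 (fer-labelled) and 9.45, 9.99 and 7.97 (ccrfer). The order WT, ccrfer, ccr, labelled fer held without overlap. The means were 2.42 times WT in ccr (difference 1.14, SE 0.103, adjusted p = 3.02e-06), 4.06 times in the fer-labelled libraries (1.84, adjusted p = 2.44e-08) and 1.69 times in ccrfer (0.66, adjusted p = 0.00022). From ccr to ccrfer HSP101 changed by -0.48 (adjusted p = 0.00594), a call that ended once AT2G01021 entered as a covariate (-0.35, adjusted p = 0.102). It was higher in the fer-labelled libraries than in ccr by 0.71 (adjusted p = 0.000195). HSP101 overlaps AT1G74300 on the other strand, which was at 5.42 to 6.68 FPKM in WT, 8.31 to 9.64 in ccr (0.46 against WT, adjusted p = 0.0564), 4.90 to 5.89 in the fer-labelled libraries and 6.47 to 11.8 in ccrfer. The part of this overlap in the HSP101 values was not tested. Whether the authors' counting used strand is not given in the sources used here.

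The factor gene HSFA2 (chromosome 2, 11135624 to 11137792, plus strand) was raised in ccr and in the fer-labelled libraries, and near WT in the double mutant. Its replicates gave 0.996, 1.56 and 1.25 FPKM (WT), 5.23, 3.85 and 5.48 (ccr), 5.33, 5.09 and 7.89 (fer-labelled) and 2.86, 1.84 and 0.851 (ccrfer). All libraries of ccr and labelled fer lay above all of WT and ccrfer. HSFA2 was 3.83 times WT in ccr (difference 1.36, SE 0.253, adjusted p = 0.000914) and 4.81 times in the fer-labelled libraries (1.63, adjusted p = 0.000178). From ccr to ccrfer HSFA2 changed by -1.09 (adjusted p = 0.00924), a call that ended with the AT2G01021 covariate (-0.86, adjusted p = 0.128).

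The upper and the lower neighbours in the order of HSFA2 did not differ beyond their spread. ccrfer minus WT was 0.27 (95% interval -0.28 to 0.83, adjusted p = 0.401), but without ccrfer replicate 3 it passed the threshold (0.55, adjusted p = 0.0451). Labelled fer minus ccr was 0.27 (95% interval -0.28 to 0.82, adjusted p = 0.437).

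HSFA6A (chromosome 5, 17625353 to 17626487, minus strand), a class A factor gene known to respond to salt and drought, was detected above 1 FPKM in ccr alone. It was at 3.64, 3.42 and 2.77 FPKM in ccr. The other libraries gave 0.230, 0.229 and 0 (WT), 0.163, 0 and 0.303 (fer-labelled) and 0.170, 0.136 and 0 (ccrfer). The ccr libraries lay above all 9 others, and the other 3 genotypes overlapped. The difference was 1.89 between ccr and WT (SE 0.172, adjusted p = 3.17e-06), -1.95 between ccrfer and ccr (adjusted p = 6.64e-06) and -1.89 between labelled fer and ccr (adjusted p = 4.13e-06). Differences among the other genotypes lay between -0.06 and 0.00, with intervals inside -0.44 to 0.38. HSFA6A passed the filter through ccr alone, so a difference for ccr was built into its being tested.

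**Figure D2:**
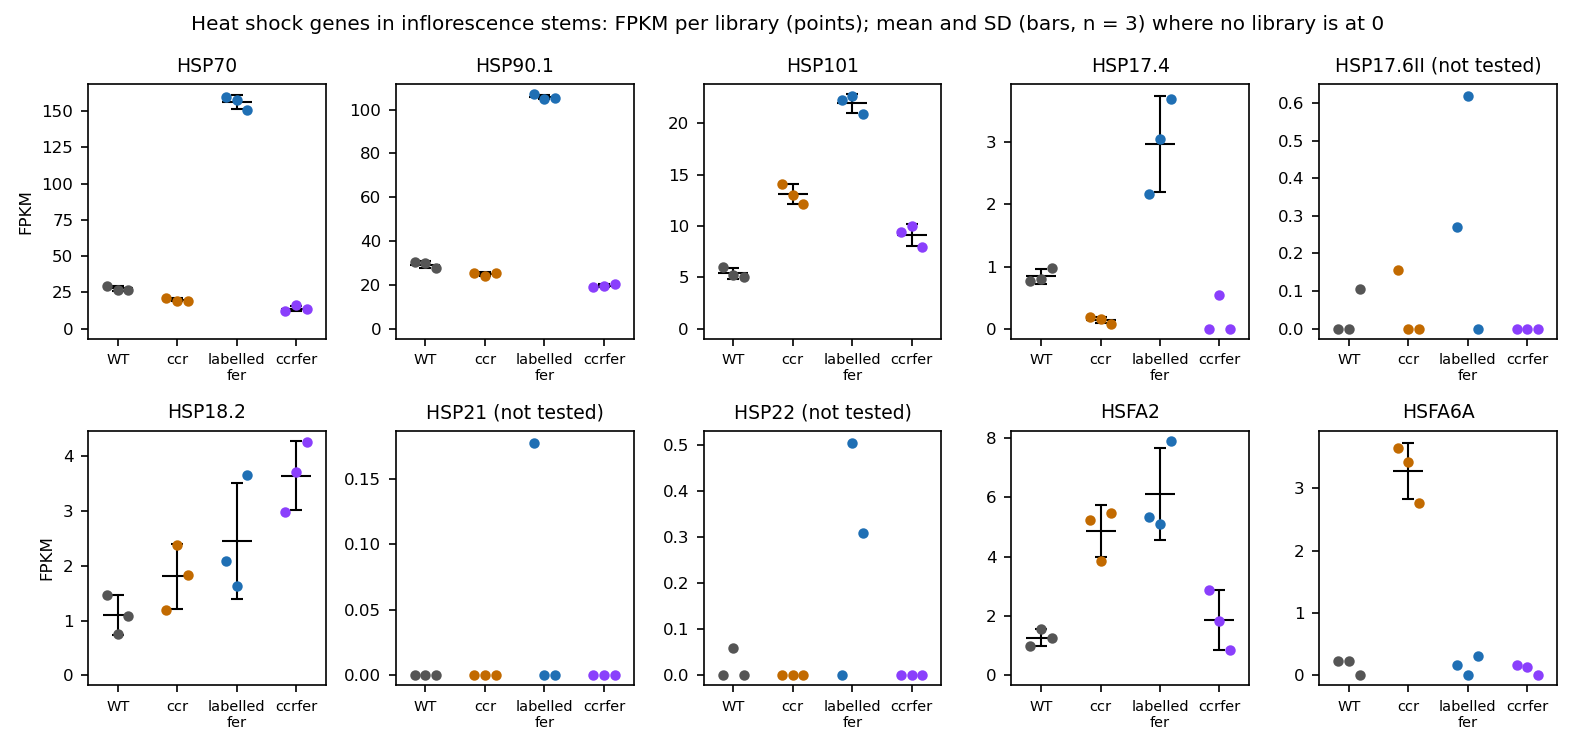
FPKM (y axes) of the 10 heat shock genes in each of the 12 libraries (points), by genotype (x axis), with mean and SD of 3 libraries where none is at 0. HSP70 and HSP90.1 stand at 151 to 160 and 105 to 107 in the fer-labelled libraries, HSFA6A above 2.7 only in ccr, and HSP17.6II, HSP21 and HSP22 below 0.7 everywhere.

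The small heat shock protein genes were low throughout. HSP17.4 (chromosome 3, 16984118 to 16984867, minus strand), of cytosolic class I, gave 0.764, 0.792 and 0.981 FPKM (WT), 0.191, 0.150 and 0.0811 (ccr), 2.16, 3.05 and 3.70 (fer-labelled) and 0, 0.544 and 0 (ccrfer). The fer-labelled libraries lay above all others, and WT lay above ccr and ccrfer. HSP17.4 was higher in the fer-labelled libraries than in WT by 1.09 (SE 0.207, adjusted p = 0.000852), and fell against WT in ccr (-0.69, adjusted p = 0.0172) and in ccrfer (-0.67, adjusted p = 0.0182). The ccr call ended without WT replicate 3 (-0.64, adjusted p = 0.0635) or ccr replicate 3 (-0.66, adjusted p = 0.058), and the ccrfer call without WT replicate 3 (-0.62, adjusted p = 0.0654) or ccrfer replicate 1 (-0.57, adjusted p = 0.0616). With a pseudocount of 0.1 the difference between the fer-labelled libraries and WT was larger and missed the threshold (1.67, adjusted p = 0.0539). HSP17.4 passed the filter through the fer-labelled libraries alone, and it overlaps AT3G46220 on the other strand, which was at 24.3 to 24.9 FPKM in WT, 20.3 to 22.9 in ccr, 17.0 to 20.1 in the fer-labelled libraries and 18.03 to 22.9 in ccrfer. AT3G46220 was lower than in WT in the fer-labelled libraries (-0.41, adjusted p = 0.00305) and in ccrfer (-0.25, adjusted p = 0.0471). HSP17.4 also overlaps AT3G07365, a long non-coding RNA gene on the other strand, for which no level is given here. The part of these overlaps in the HSP17.4 values was not tested.

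HSP18.2 (chromosome 5, 24062323 to 24063300, plus strand), also of class I, had another order, with the double mutant highest. Its replicates gave 1.47, 0.755 and 1.07 FPKM (WT), 1.19, 2.38 and 1.84 (ccr), 2.09, 1.63 and 3.65 (fer-labelled) and 2.98, 3.71 and 4.25 (ccrfer). Each pair of neighbours in that order overlapped, while WT lay below every fer-labelled library and every ccrfer library. HSP18.2 was higher in ccrfer than in WT (3.31 times, difference 1.15, SE 0.238, adjusted p = 0.00173). The calls against WT in the fer-labelled libraries (0.69, adjusted p = 0.0296) and against ccr in ccrfer (0.74, adjusted p = 0.0469) were near the threshold. The first ended without fer replicate 3 (0.45, adjusted p = 0.121), WT replicate 2 (0.57, adjusted p = 0.113) or WT replicate 3 (0.69, adjusted p = 0.0693), after quantile normalization (0.45, adjusted p = 0.149) and with the AT2G01021 covariate (0.60, adjusted p = 0.127). The second ended under 15 of 22 alternatives that kept it among the tested genes, the replicate block (0.74, adjusted p = 0.0541) and the loss of ccrfer replicate 3 (0.65, adjusted p = 0.102) among them, with the adjusted p over all alternatives between 0.0239 and 0.269. ccr minus WT was 0.41 (95% interval -0.11 to 0.93, adjusted p = 0.193).

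The other 3 small heat shock protein genes were not tested, since fewer than 3 libraries reached 1 FPKM. HSP21 (chromosome 4, 13818825 to 13819971, minus strand), of the chloroplast, was at 0.178 in replicate 1 of the fer-labelled libraries and listed at 0 in the other 11. HSP22 (chromosome 4, 6370338 to 6371372, plus strand), of the endoplasmic reticulum, was at 0.506 and 0.310 in replicates 2 and 3 of the fer-labelled libraries, at 0.0587 in WT replicate 2 and listed at 0 in the other 9. HSP17.6II (chromosome 5, 3882231 to 3883111, minus strand), of cytosolic class II, was at 0.271 and 0.618 in replicates 1 and 2 of the fer-labelled libraries, at 0.106 in WT replicate 3 and 0.155 in ccr replicate 1, and listed at 0 in the other 8. In limma without the filter none of the 3 passed in any comparison, and the lowest adjusted p was 0.0516. For all 3 the highest library was a fer-labelled library, and none of the ccrfer libraries held a value above 0.

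Counted over the 7 tested genes, ccr against WT had 3 higher (HSP101, HSFA2 and HSFA6A) and 3 lower (HSP70, HSP90.1 and HSP17.4). Of all tested genes 24.0% were called higher and 19.8% lower in that comparison. The fer-labelled libraries against WT had 6 higher, all but HSFA6A, and 0 lower, where 28.4% and 23.2% of all tested genes were called. ccrfer against ccr had 5 lower and 1 higher (HSP18.2), against 10.1% and 10.4%, and ccrfer against WT had 3 lower and 2 higher, against 22.8% and 24.9%. ccrfer against the fer-labelled libraries had 5 lower and 0 higher, against 21.3% and 19.3%. The fer-labelled libraries had 4 higher and 1 lower (HSFA6A) than ccr, against 20.5% and 18.5%. These comparisons share libraries, and HSP17.4 and HSFA6A passed the filter through a single genotype, so the counts are descriptions. The 6 wood markers rose against WT in ccr, in the fer-labelled libraries and in ccrfer, and their part in these counts was not tested. The 0 lower among the fer-labelled libraries and the 0 higher in ccrfer against them come from limma, where an unadjusted p under 0.05 gave 0 as well.

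The difference that goes with ccr1-3 was not the same beside the fer label as without it for 6 of the 7 genes. The test was the interaction, which is the difference between ccrfer and labelled fer less the difference between ccr and WT. It was -2.95 for HSP70 (SE 0.127, adjusted p = 7.46e-09), -2.72 for HSFA2 (SE 0.358, adjusted p = 7.90e-05), -2.32 for HSP101 (SE 0.146, adjusted p = 1.74e-07) and -2.15 for HSP90.1 (SE 0.0808, adjusted p = 2.98e-09). HSFA6A (-1.95, adjusted p = 5.19e-05) and HSP17.4 (-1.07, adjusted p = 0.0123) passed as well, although each passed the filter through a single genotype that enters the term, ccr for HSFA6A and labelled fer for HSP17.4. HSP18.2 did not pass (0.05, 95% interval -0.68 to 0.79, adjusted p = 0.919). The HSP17.4 call ended after quantile normalization (-0.64, adjusted p = 0.0775) and with a pseudocount of 0.1 (-2.02, adjusted p = 0.113). Of all tested genes 22.4% were called lower and 17.1% higher in the interaction, and HSP70 ranked 116 from the bottom of 18428. The fer-labelled libraries held FER at the WT level and seed markers at 151 to 164 FPKM, and the part of either in these interactions was not tested.

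**Figure D3:**
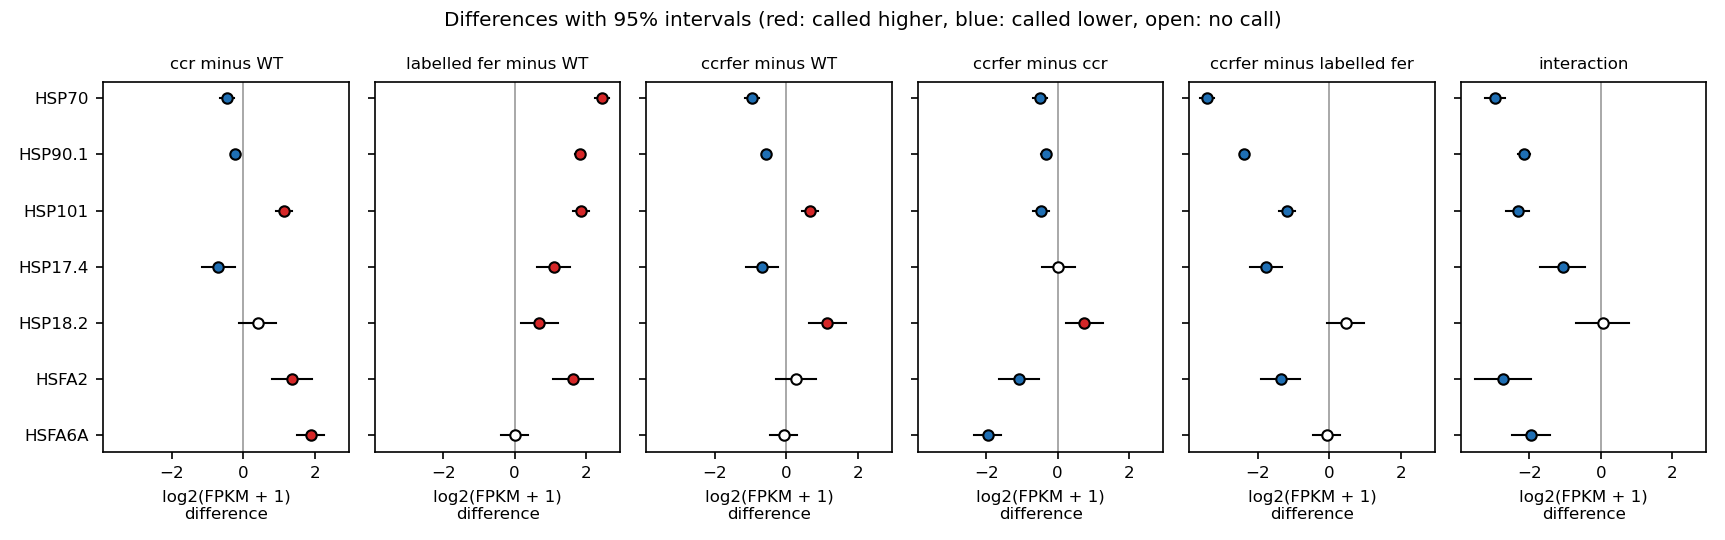
Differences of the 7 tested genes (x axes, log2(FPKM + 1) scale, points with 95% intervals) in 5 pairwise comparisons and the interaction, filled where called. HSP70 and HSP90.1 lie to the right, among the panels, only in the fer-labelled libraries against WT (2.45 and 1.82), and 6 of 7 genes lie to the left in the interaction.

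In the authors' deposited table of 313 selected genes, 3 of the 10 appear, all marked as moving one way in ccr and back in ccrfer. The authors' deposited table gives a log2 ratio of ccr to WT of 4.42 for HSFA6A, 1.94 for HSFA2 and 1.28 for HSP101, with adjusted p of 0.0264, 0.000266 and 0.000266. In the authors' deposited table the log2 ratio of ccrfer to WT is -0.59 for HSFA6A, 0.55 for HSFA2 and 0.76 for HSP101.

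Beyond the 10 genes, lists of related chaperones and factors were read in the same comparisons, and their members named here are the called genes with the largest differences. In the fer-labelled libraries, many of the cytosolic, plastid and mitochondrial chaperone genes rose against WT. Of all tested genes 28.4% were called higher and 23.2% lower in that comparison, which is the background for the counts of all the families. In the same comparison the 8 seed markers were higher (median difference 3.67), 7 of which passed the filter through these libraries alone, and the 6 wood markers rose (median 4.48). The remaining seed marker, SESA3, reached 1 FPKM elsewhere only in ccr replicate 1. The part of either tissue signature in the chaperone genes was not tested. Of 12 further HSP70 family genes 9 were higher and 0 lower (median difference 0.68, against 0.04 over all tested genes). HSC70-1 (AT5G02500), an abundant cytosolic HSP70 present without heat, went from 868 ± 46.0 to 2174 ± 119 FPKM (SD, n = 3, difference 1.32), and stood at 1913 ± 102 in ccr and 1546 ± 174 in ccrfer. cpHsc70-2 of the chloroplast rose from 42.6 to 92.6 (1.10), Hsp70-2 from 46.8 to 101 (1.10), AT3G09440 from 384 to 763 (0.99) and MTHSC70-2 of the mitochondrion from 41.6 to 80.01 (0.93). After quantile normalization the differences were smaller for HSC70-1 (0.70) and AT3G09440 (0.55), and both stayed called. They were 1.04 for cpHsc70-2, 1.02 for Hsp70-2 and 0.88 for MTHSC70-2. HSP70 family genes of the cytosol are close copies, so fragments may have been shared between them. For this family and for the small heat shock proteins, 0 genes fell at an unadjusted p under 0.05 in limma either.

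Of 8 further HSP90 and HSP100 genes 7 were higher in the fer-labelled libraries than in WT and 1 lower (median difference 0.56), against 28.4% and 23.2% of all tested genes. HSP81-2 (AtHsp90.2, 148 to 331 FPKM, difference 1.16) and HSP81-3 (255 to 409, 0.68), cytosolic HSP90 copies that are alike in sequence, rose with CR88 of the chloroplast (40.6 to 79.2, 0.95) and Hsp89.1 of the mitochondrion (20.97 to 34.95, 0.71). The exception was SHD, the HSP90 of the endoplasmic reticulum, at 312 FPKM in WT, 443 in ccr, 234 in the fer-labelled libraries and 210 in ccrfer. Labelled fer minus WT was -0.41 for SHD (adjusted p = 0.000155) and ccrfer minus ccr was -1.08 (adjusted p = 1.98e-07). After quantile normalization, labelled fer minus WT was smaller for HSP81-2 (0.90) and HSP81-3 (0.44), and both stayed called. For CR88 it was 0.91 and for Hsp89.1 0.72.

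Of 13 further small heat shock protein genes only 8 were tested, and 6 of them were higher in the fer-labelled libraries than in WT with 0 lower (median difference 0.96). After quantile normalization 4 of the 8 passed. AT1G07400 and AT5G51440 passed the filter through the fer-labelled libraries alone, so that their difference was built into their being tested, and the count is a description. Outside the fer-labelled libraries, HSP17.6A reached 1 FPKM only in ccrfer replicate 3, and AT4G21870 only in ccrfer replicates 1 and 3. Neither would have been tested without the fer-labelled libraries. HSP17.6A, of class II, went from 0.226 to 3.17 FPKM (1.73), AT1G54050 from 0.784 to 3.74 (1.39), AT1G07400 from 0.725 to 2.99 (1.21), AT4G21870 from 0.389 to 2.02 (1.02) and AT5G51440 from 0.676 to 2.096 (0.89). The AT4G21870 call ended after quantile normalization (adjusted p = 0.0794) and with the AT2G01021 covariate (0.68, adjusted p = 0.185). Of the 14 tested targets and co-chaperones 10 rose and 2 fell (median 0.57). GolS1, a galactinol synthase gene bound by heat shock factors and active in maturing seeds, went from 262 ± 5.34 to 2186 ± 97.9 FPKM (3.05), and Hop3, which links HSP70 to HSP90, from 0.838 to 3.63 (1.33). Hop3 too passed the filter through the fer-labelled libraries alone. The peptidyl-prolyl isomerase gene ROF1 (32.1 to 68.5, 1.07) and its relative AT5G48570 (6.25 to 14.6, 1.11) rose, while DREB2A, a drought and heat regulator, fell from 6.93 to 1.63 (-1.62).

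The other heat shock factor genes had no common direction. In the fer-labelled libraries against WT, 2 were higher and 3 lower of 16 tested (median 0.04), against 28.4% and 23.2% of all tested genes. In ccr against WT, 3 were higher and 4 lower (median 0.12), against 24.0% and 19.8%. HSFA8 fell from 17.42 to 3.20 FPKM (-2.19) and HSF3 (HSFA1B), a constitutive activator, from 27.1 to 12.9 (-1.03) in the fer-labelled libraries, where HSFB4 rose from 3.32 to 8.54 (1.14). HSFA8 was also below WT in ccr (8.33, -0.98, adjusted p = 0.00102) and in ccrfer (6.43, -1.31, adjusted p = 0.000101). HSF3 was below WT in ccr (18.4, -0.54, adjusted p = 0.00422) and not called in ccrfer (22.8, -0.26, adjusted p = 0.113). HSFB4 stood at 5.77 in ccr and 7.045 in ccrfer. HSFC1 was at 2.54 FPKM in WT, 8.31 in ccr, 5.70 in the fer-labelled libraries and 2.57 in ccrfer, and ccrfer minus ccr was -1.51 (adjusted p = 0.00358), a call that ended with the AT2G01021 covariate (-1.03, adjusted p = 0.0758). HSFA7A fell from 2.85 in WT to 0.904 in ccr (-1.0, adjusted p = 0.0211), and was also below WT in ccrfer (0.8675, -1.12, adjusted p = 0.0108). In the fer-labelled libraries HSFA7A was at 4.23 and not called against WT (0.45, adjusted p = 0.252).

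Most chaperone genes of the endoplasmic reticulum rose in ccr against WT and were lower in ccrfer than in ccr. Of 11 genes of its unfolded protein response 9 rose and 0 fell in ccr against WT (median 0.42), 10 were lower and 0 higher in ccrfer than in ccr (median -0.82), and 5 were lower and 0 higher in the fer-labelled libraries than in WT (median -0.18). The shares of all tested genes called higher and lower were 24.0% and 19.8%, 10.4% and 10.1%, and 28.4% and 23.2% in those comparisons. In ccrfer against WT, 9 of the 11 were lower and 0 higher (median -0.52), where 22.8% and 24.9% of all tested genes were called. The 6 wood markers rose in ccr against WT (median 4.83) and in ccrfer against ccr (median 0.87), and their part was not tested. At an unadjusted p under 0.05 in limma, 1 gene of this list fell in ccr against WT and the other counts of 0 stayed 0. BIP2, the HSP70 of that compartment, was at 89.6 ± 6.15 FPKM in WT, 170 ± 6.20 in ccr, 87.7 ± 4.11 in the fer-labelled libraries and 62.1 ± 2.76 in ccrfer (SD, n = 3), and ccrfer minus ccr was -1.43 (adjusted p = 1.94e-08). BIP3, the stress-induced copy, fell from 6.58 in ccr to 1.11 in ccrfer (-1.87), and was at 3.49 in WT. PDIL1-1, a disulfide isomerase, fell from 176 in ccr to 85.2 in ccrfer (-1.04), and was at 128.5 in WT and lowest in the fer-labelled libraries (65.8). In ccrfer against ccr the calnexin gene CNX1 fell from 124 to 68.9 (-0.84) and ATERDJ3A, a J-domain co-chaperone, from 2.96 to 0.803 (-1.18). In WT, CNX1 was at 107 FPKM and ATERDJ3A at 1.95. BIP1 and BIP2 are near copies, so their levels may share fragments.

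**Figure D4:**
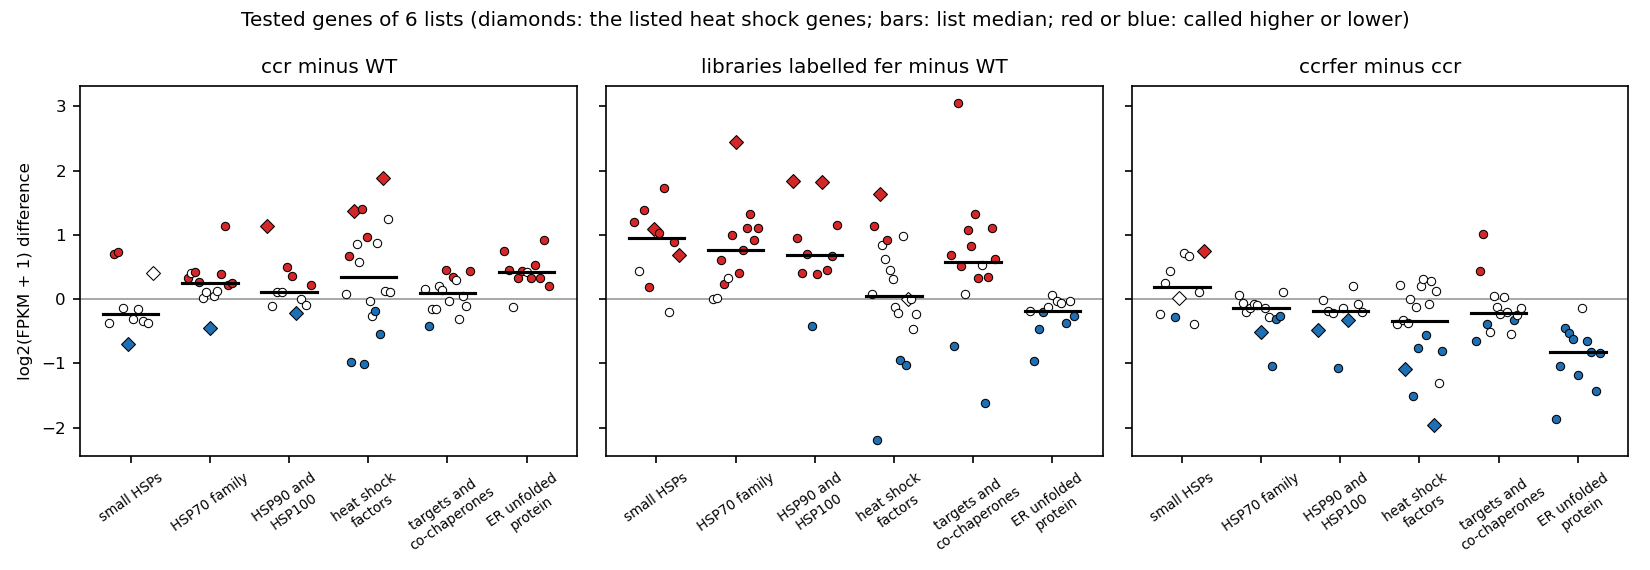
Differences (y axis, log2(FPKM + 1) scale) of the tested genes of 6 lists (x axis) in ccr against WT, the fer-labelled libraries against WT, and ccrfer against ccr. Diamonds mark the 7 tested of the 10 genes, bars are list medians with those 7 included, and fill marks calls. The median of the HSP70 family is 0.76 in the fer-labelled libraries against WT, and that of the unfolded protein response is -0.82 in ccrfer against ccr.

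Across the 12 libraries, HSP90.1 was the gene whose log2(FPKM + 1) values followed HSP70 most closely (Pearson r = 0.996, among 14857 genes at a mean of 5 FPKM or more in a genotype). Without the fer-labelled libraries r was 0.956. Next came the catalase gene CAT2 (0.991), CYP71B2 (0.989), VTC2 of ascorbate synthesis (0.988) and AT1G68670 (0.986). HSP101 was followed most closely by genes of ribosomal proteins, ATL5 (0.995), AT5G07090 (0.993), RP1 (0.993), RPL18 (0.992) and AT3G53430 (0.992). The r of HSP101 with HSP70 was 0.685, which became -0.49 without the fer-labelled libraries. HSFA2 was followed by AT5G11650 (0.965), AT1G75180 (0.960), AT1G10590 (0.958), AT2G38640 (0.956) and AT4G16500 (0.954), and its r with HSP101 was 0.879 (0.835 without the fer-labelled libraries). These values share libraries and genotypes and are descriptions.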

How the data were processed

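The values are FPKM per gene and library, deposited by the authors for 27655 genes and 12 libraries, with 3 biological replicates in each of 4 genotypes. Reads were paired, 75 bases long, from stranded mRNA libraries, per the labels' protocols. Per the submitters' processing notes, TopHat2 2.1.1, Bowtie2 2.3.2.0, Cufflinks 2.2.1 and Cuffdiff were used with TAIR10, and whether counting used strand is not given in the sources used here. The authors' deposited table of 313 genes holds mean FPKM, log2 ratios and adjusted p-values, used only where named. The deposited read report gave the counts of reads per library and the fraction mapped by the authors (91.43% to 94.21%), used for depth only. FPKM values keep no counts, so no counting intervals are given.

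FPKM was tested as log2(FPKM + 1) with limma 3.58.1 in R 4.3.3, on the 18428 genes that reached 1 FPKM in 3 or more libraries, with a mean per genotype and a trended prior variance. Differences and errors are on that scale, which understates changes of low genes. P-values were adjusted by Benjamini-Hochberg over all tested genes of each comparison, and a gene was called below 0.05. The scripts were tested on simulated data. Over all tested genes the replicate numbers did not pair libraries, as deviations of same-numbered libraries correlated at -0.129 to 0.191 over 18 pairs. Libraries came from the genotype named in the sample title. The labels call the samples biological replicates, without saying whether plants were pooled.

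The 10 genes, the lists and the markers were chosen with earlier results of these data known, so no p-value is given over a list. Named list genes are up to 5 per list, the called genes with the largest difference in ccr against WT, ccrfer against ccr or labelled fer against WT. Genes of like pattern are the 5 with the highest Pearson r. Motifs were searched in TAIR10.1 with RefSeq gene starts. The promoter window of 1 of the 10 genes is not reported here. Alternatives covered the pseudocount, the filter, scaling, the variance trend, the replicate block, an AT2G01021 covariate, the libraries in the fit and each library left out.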

Additional observations from a re-analysis of the deposited data

Results flagged for a closer look

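For 6 of the 7 tested heat shock genes the difference between ccrfer and the fer-labelled libraries was not that between ccr and WT, by the interaction term of limma. Of all tested genes 22.4% were called lower and 17.1% higher in that term. The interaction was -2.95 for HSP70, -2.15 for HSP90.1 and -2.32 for HSP101. In HSP101 the ccr difference against WT was 1.14, while ccrfer minus labelled fer was -1.18. The interaction was -2.72 for HSFA2, where those differences were 1.36 and -1.36. It was -1.95 for HSFA6A and -1.07 for HSP17.4. HSFA6A passed the filter on low values through ccr alone and HSP17.4 through the fer-labelled libraries alone, so each had to differ in a group that enters the term. Without the fer-labelled libraries no interaction can be had.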

How the results depend on the processing

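Over 23 alternatives, 1019 of 1071 values of single heat shock genes kept their direction and their side of the threshold, 30 calls were lost, 2 were gained and 20 values changed sign. With each library left out in turn, the number of the genes called was 5 to 6 in ccr against WT (6 with all libraries), 5 to 6 in ccrfer against ccr (6), 5 to 6 in labelled fer against WT (6), 5 to 6 in ccrfer against labelled fer (5), 4 to 6 in ccrfer against WT (5), 5 in labelled fer against ccr (5) and 6 in the interaction (6). With the AT2G01021 covariate 3 of the genes were called in ccrfer against ccr. The filter of 5 FPKM, which leaves fewer of the genes to test, gave 3 in ccrfer against WT and 3 in labelled fer against ccr. Every value that changed sign belonged to a difference that was not called. HSP17.4 in ccrfer against ccr became -0.34 with a pseudocount of 0.1, and ran from -0.1887 to 0.1246 with a library left out. The interaction of HSP18.2 became -0.0427 with a pseudocount of 0.1 and ran from -0.1234 to 0.2889 with a library left out. HSFA6A in labelled fer against WT became -0.0123 and -0.0001 with pseudocounts of 0.1 and 0.5, -0.0043 with median-of-ratios scaling and -0.0855 after quantile normalization, and ran from -0.0985 to 0.1009 with a library left out. HSFA6A in ccrfer against labelled fer became 0.0582 after quantile normalization and ran from -0.1629 to 0.0279 with a library left out, and in ccrfer against WT it ran from -0.1615 to 0.0065. The cause was not tested. The replicate block ended the call of HSP18.2 in ccrfer against ccr (0.74, adjusted p = 0.0541) and no other call of the 7 genes. HSP17.4 in ccrfer against WT lost its call with the AT2G01021 covariate (-0.53, adjusted p = 0.093), and HSP18.2 in ccrfer against labelled fer gained one without fer 3 (0.70, adjusted p = 0.0322). The fit without the fer-labelled libraries was added after seeing the data. FPKM near or below 1 limits HSP17.4, HSP18.2, HSFA6A and the 3 untested genes.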

Other observations

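Among the other heat shock factor genes, chosen after their values were seen, HSF4 (AT4G36990, a class B factor that represses transcription) varied widely between replicates. Its replicates gave 298, 43.5 and 440 FPKM (WT), 460, 109 and 713 (ccr), 903, 55.8 and 875 (fer-labelled) and 1010, 513 and 58.3 (ccrfer). Each genotype thus had a library far below the others, and no comparison passed the threshold. The low library was replicate 2 in WT, ccr and labelled fer, and replicate 3 in ccrfer. HSFA9 (AT5G54070), the factor of maturing seeds, gave 47.7, 34.6 and 25.4 FPKM (WT), 83.5, 69.4 and 101 (ccr), 25.2, 27.2 and 22.6 (fer-labelled) and 57.9, 70.3 and 8.46 (ccrfer). HSFA9 was lower in the fer-labelled libraries than in ccr (-1.71, adjusted p = 0.0349), while the seed markers were highest in the fer-labelled libraries.

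Matches of 3 heat shock element units stood in the promoter windows of 4 of 15 target and co-chaperone genes (DREB2A, GolS1, Hop3 and BOB1), 3 of 13 HSP70 family genes, 3 of 21 heat shock factor genes, 2 of 18 small heat shock protein genes, 0 of 10 HSP90 and HSP100 genes and 0 of 11 genes of the unfolded protein response. Among the markers, 1 of 6 wood genes, 0 of 8 seed genes and 0 of 5 flower genes held one. The counts for the HSP70 family, the factors and the small heat shock proteins include HSP70, HSFA2 and HSP17.4, described above. Over all promoters the share was 0.481%. The first list was chosen as heat shock factor targets and co-chaperones, so its count is a description. GolS1, Hop3 and BOB1 (29.8 to 46.4 FPKM, 0.62) rose in the fer-labelled libraries against WT, and DREB2A fell. Hop3 passed the filter through those libraries alone, and BOB1 was at 40.6 in ccr and 36.9 in ccrfer. AT3G09440, cpHsc70-2 and the wood marker FLA11, which also held 3 units, rose there too. HSFA7A was not called (0.45, adjusted p = 0.252 in limma), and AT1G53540 and AT-HSFA7B were not tested.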
